A study of Mus musculus with 12 samples.

Results

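The core genes of autophagy were examined in ventral hippocampus (vHPC), in the whole tissue and in the ribosome-bound mRNA of its neurons that project to nucleus accumbens (NAc). The set holds 10 of the 37310 gene IDs counted: Ulk1, Ulk2, Becn1, Atg7, Atg3, Atg5, Atg12, Atg4b, Map1lc3b and Sqstm1. Atg7 was chosen by its ratio of TRAP to input, the largest of all genes tested over both genotypes in earlier work on these same counts, and the other 9 joined it by function. The TRAP to input ratio of Atg7 is therefore described below without a test, whereas its comparison between genotypes was not used in choosing it.

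Autophagy encloses cytoplasm, damaged organelles and protein aggregates in a double membrane, the autophagosome, which then fuses with a lysosome. The ULK kinases start the process, a lipid kinase complex holding Beclin 1 marks the membrane, and 2 ubiquitin-like conjugation systems, both activated by ATG7, attach ATG12 to ATG5 and LC3 to lipid. In neurons, autophagosomes form largely in distant axons and travel back to the cell body, and loss of Atg5 or Atg7 in the mouse nervous system is known to cause protein aggregates and neurodegeneration.

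Translating ribosome affinity purification (TRAP) recovers mRNA from ribosomes that carry a tagged protein. All mice were C57BL/6 and carried Rosa26eGFP/L10a, a Cre-dependent fusion of GFP to the ribosomal protein L10a, and all received retrograde HSV-Cre in NAc 3 weeks before vHPC was punched. WT mice had intact FosB, and FosB knockout (KO) mice were FosBfl/fl, in which, by the design, Cre deletes FosB in the transduced cells. The 4 groups, TRAP and input of each genotype, had 3 libraries each, numbered 1 to 3 in WT and 2 to 4 in KO, and each number gave a TRAP and an input library from 1 pool of 3 mice by the labels (3 to 4 by the methods). Input was RNA of the whole punch, which by the design also holds cells without Cre. Animals were pooled, so p-values here measure the spread between pools and not between mice. In bulk libraries such as these, fewer cells of a type and less RNA per cell cannot be told apart.

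The libraries held 3416030 to 5614089 reads on genes. Levels are given as CPM, reads per 1000000 reads on genes after scaling, and 3 reads were worth 0.534 to 0.878 CPM. Every core gene was well above this floor, with 83 or more reads in every library. Fosb, the targeted gene, was at 45.2, 32.6 and 40.2 CPM in WT TRAP and at 29.1, 18.8 and 21.3 CPM in KO TRAP. In input it was at 30.1, 22.2 and 24.3 CPM in WT and at 17.0, 16.0 and 14.9 CPM in KO, so KO lay below WT without overlap in both kinds of library. The KO mean was 58.7% of the WT mean in TRAP and 62.5% in input, so Fosb was lower in the whole punch by about as much as in TRAP, although the vector brought Cre only to part of its cells. Gene counts cover exons outside any deleted part, so residual reads are no measure of the remaining FosB protein. The labels call the tissue hippocampus neurons, and the summed CPM of 12 pan-neuronal markers was 12014 to 12329 in input and 13535 to 16242 in TRAP. That of 11 astrocyte markers was 2161 to 2610 in input and 365 to 453 in TRAP, and that of 10 GABA neuron markers 875 to 1037 and 180 to 647. The value of 647 belonged to KO TRAP replicate 2, which stood apart from the other 2 KO TRAP libraries, at 191 and 180.

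Levels of different genes were compared as CPM per kilobase of exon. Sqstm1, which encodes p62, the cargo receptor that tethers ubiquitinated proteins to LC3, was the highest of the 10 in every group. Its mean per kilobase was 130.1 in WT input and 135 in KO input, against 227 in WT TRAP and 214 in KO TRAP. Map1lc3b, which encodes the LC3 protein that coats autophagosomes, was second in every group, at 71.6 and 69.8 in input and 88.2 and 74.1 in TRAP. The ranges of these 2 genes did not overlap in any group.

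Atg7 changed its place in the order. It was the last of the 10 genes in WT input, at 6.67 ± 0.792 CPM per kilobase (SD, n = 3), where its range overlapped that of Atg4b above it, and in KO input, at 6.06 ± 0.575, where it did not. In TRAP it stood at place 3, at 71.5 ± 28.0 in WT and 48.0 ± 9.33 in KO. In WT TRAP its range overlapped that of Map1lc3b above it, and in KO TRAP it did not, while the gene below it in both groups, Ulk1, was at 22.1 and 20.8. Ulk1, Ulk2, Atg12 and Atg3 took places 4 to 7 in both TRAP groups, each overlapping the next. Becn1 and Atg4b were the lowest of the 10 in TRAP, at 10.1 and 9.73 in WT and 10.9 and 9.15 in KO.

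**Figure D1:**
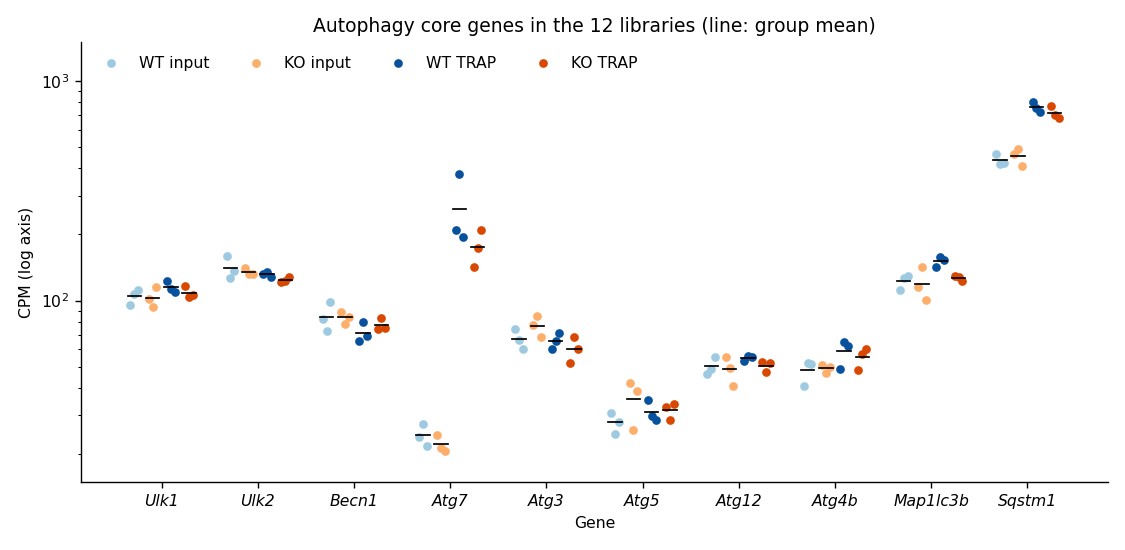
CPM of each of the 10 genes (log axis, 1 point per library, line at the group mean) in input and TRAP of each genotype, 3 libraries per group. Atg7 lies between 20.6 and 27.4 CPM in input and between 142 and 379 CPM in TRAP, Sqstm1 is higher in every TRAP library than in every input library, and the other 8 genes overlap when all 6 TRAP libraries are set against all 6 input libraries.

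Atg7 encodes the E1-like enzyme that activates both ATG12 and the LC3 family, the step on which both conjugation systems depend. In input it was at 24.0, 27.4 and 21.7 CPM in WT and at 24.5, 21.3 and 20.6 CPM in KO, from 83 to 120 reads per library. In TRAP it was at 210, 379 and 195 CPM in WT and at 142, 174 and 210 CPM in KO, from 512 to 1582 reads. All 6 TRAP libraries thus lay above all 6 input libraries, and WT TRAP replicate 2 stood well above the rest. Within pools, TRAP over input was 8.75, 13.8 and 9.003-fold in WT and 5.79, 8.17 and 10.2-fold in KO. The fitted log2 difference over both genotypes was 3.19 (SE 0.18), or 9.16-fold, the first of 13214 genes, ahead of Tnrc18 at 3.04 (SE 0.23) and Bahcc1 at 3.04 (SE 0.17). In WT alone it was 3.41 (SE 0.25), and in KO alone 2.98 (SE 0.15), where Bahcc1 was ahead of it by less than the SE. It was the value that chose the gene and it bears no p here.

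On mm9, the build the authors mapped to, Atg7 spans chr6:114593149-114810431 on the plus strand, with 3651 exon bases in 2 annotated transcripts. No other annotated gene overlaps it. The nearest neighbour, Vgll4, a transcriptional cofactor gene that lies 215 bases beyond it on the other strand, had a log2 difference of -0.04 (SE 0.22, adjusted p = 0.904 by edgeR's quasi-likelihood test) between TRAP and input. Syn2, a synaptic vesicle protein gene within 400000 bases of Atg7, was higher in TRAP, at 0.55 (SE 0.06, adjusted p = 5.31e-08 by edgeR). Timp4, a metalloproteinase inhibitor gene within the same distance, was lower, at -3.52 (SE 0.41, adjusted p = 1.43e-07 by edgeR). Neighbouring genes were thus found higher, lower and near 0.

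The reads that a gene can collect depend on how much of it is unique, since reads with several alignments were set aside. Of 235 stretches of 75 bases from Atg7 exons, 29.8% had a near copy elsewhere in mm9 with up to 2 mismatches, all of them on 1 unplaced contig, and 0% had a near copy on a chromosome. Whether the authors' index held that contig was not given in the sources used here, so the level of Atg7 per kilobase is uncertain. For Map1lc3b 56.1% of stretches had a near copy on chromosomes, with up to 6 other places, so its counts are also uncertain in level. The share was 9.22% for Ulk1, 3.29% for Atg4b, 3.04% for Sqstm1 and 0.369% for Becn1, and 0% for Ulk2, Atg3, Atg5 and Atg12. Becn1 shares 3104 of its 7065 exon bases with Cntd1 and Sqstm1 shares 580 of 3356 with 3010026O09Rik, both on the opposite strand. The library kit was stranded but the strand setting of the counting was not given in the sources used here, so these 2 genes are uncertain in level too.

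Among the other 9 genes, Sqstm1 alone passed the test between TRAP and input. It was called higher in TRAP, and no gene was called lower, where 19.6% of all 13214 genes tested were called higher and 22.5% lower. It was also the only 1 of the 9 whose TRAP libraries all lay above its input libraries, as those of 10% of all genes did. Sqstm1 was at 466, 419 and 425 CPM in WT input and at 463, 492 and 408 CPM in KO input. In TRAP it was at 806, 755 and 725 CPM in WT and at 771, 701 and 679 CPM in KO, above every input library. The ratio was above 1 in 6 of 6 pools, from 1.42 to 1.80-fold. The log2 difference was 0.72 (SE 0.07, adjusted p = 1.27e-09 by edgeR, with the Benjamini-Hochberg adjustment over all genes). It was 0.79 (SE 0.10, adjusted p = 1.40e-05) in WT, where 11.8% of genes were called higher, and 0.65 (SE 0.10, adjusted p = 2.50e-05) in KO, where 13.2% were, both by edgeR.

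The remaining 8 genes lay between -0.20 and 0.22 on the log2 scale. Map1lc3b, at 0.18 (SE 0.09, adjusted p = 0.0909 by edgeR), and Atg4b, the protease that trims LC3 before and after lipidation, at 0.22 (SE 0.11, adjusted p = 0.121 by edgeR), were each higher in TRAP in 5 of 6 pools. Atg3, the E2-like enzyme that passes LC3 from ATG7 to lipid, was lower in TRAP in 5 of 6 pools, at -0.20 (SE 0.10, adjusted p = 0.111 by edgeR). Becn1, at -0.19 (SE 0.10, adjusted p = 0.119 by edgeR), was lower in 4 of 6. The initiation kinases Ulk1 and Ulk2 were at 0.10 (SE 0.09) and -0.12 (SE 0.08), and Atg5 and Atg12, which become a single conjugate, at -0.00 (SE 0.14) and 0.08 (SE 0.11). The median of the 9 genes without Atg7 was 0.08, against -0.01 over all genes tested.

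Atg3 in KO was the nearest to a call. Its CPM in KO was 77.1, 85.5 and 68.2 in input and 51.8, 68.1 and 60.1 in TRAP, where every TRAP library lay below every input library, as 21.8% of all genes did in KO. The log2 difference in KO was -0.36 (SE 0.14, adjusted p = 0.0535 by edgeR, with 15.9% of genes called lower), and with the pool as a replicate block it passed the threshold, at -0.37 (adjusted p = 0.0341 by edgeR, with 17% of genes called lower in that fit). In WT it was -0.05 (SE 0.15), and the difference between the genotypes was -0.30 (SE 0.20, unadjusted p = 0.153 and adjusted p = 1.00 by edgeR). A difference in Atg3 between genotypes was thus not shown. The KO difference of Atg3 also passed the threshold in a fit without genes of the mitochondrial genome. Those genes held 7.54% to 9.05% of the reads on genes in KO input and 0.05% to 0.13% in KO TRAP.

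**Figure D2:**
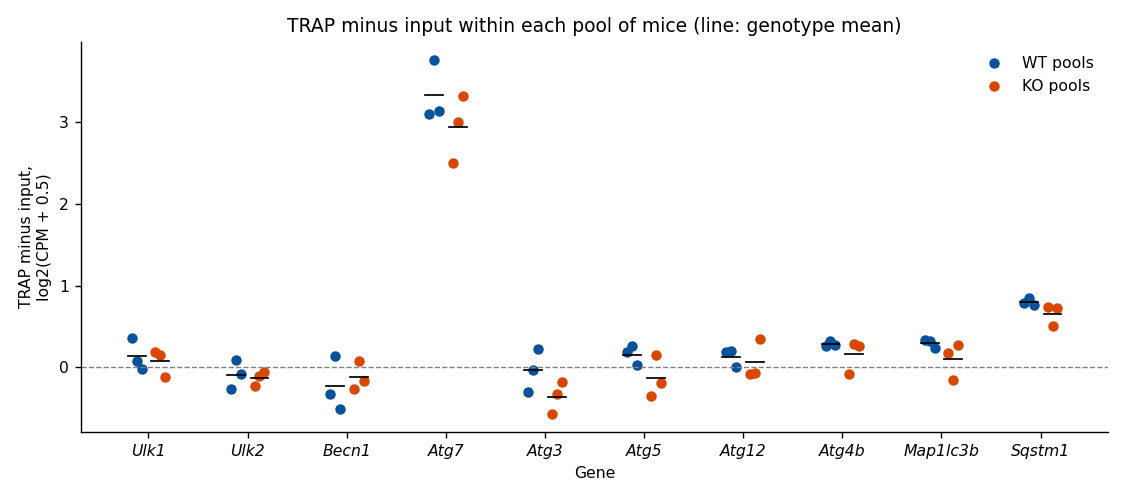
TRAP minus input of log2(CPM + 0.5) for each gene within each pool of mice (3 WT and 3 KO points per gene, line at the genotype mean, dashed line at no difference). Atg7 lies between 2.51 and 3.76 and Sqstm1 between 0.51 and 0.85 in all 6 pools, and the other 8 genes lie on both sides of 0 or have at least 1 pool on the other side.

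These differences stand on the scaling of the libraries, which differed in cell makeup. With libraries scaled on the 12 pan-neuronal markers alone, the median of all genes moved to -0.30, with 5.76% of genes called higher and 38.7% lower. On that scale Sqstm1 was at 0.44 (adjusted p = 7.50e-06 by edgeR), still above the median of all genes. Atg7 was at 2.92, a value that is only described, since the gene was chosen by this ratio. Ulk2, at -0.40, Becn1, at -0.47, and Atg3, at -0.49, then passed the threshold as lower, each within 0.20 of the median of all genes. The glial markers moved with the TRAP to input comparison (all 11 astrocyte and all 10 microglia markers were called lower in TRAP), and their part in the values of the core genes was not tested.

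The other genes of the pathway were taken as 7 lists of 69 genes in all. In TRAP against input, 15 of them were called higher and 13 lower, with a median of 0.03 against -0.01 over all genes. These counts are near the 19.6% of all genes called higher and the 22.5% called lower, so nothing is read from them about the pathway. Transcripts of the conjugation systems other than the core genes gave 4 higher and 0 lower of 10. The 4 were Map1lc3a (0.45, SE 0.08), Gabarapl2 (0.36, SE 0.10), Gabarap (0.30, SE 0.11) and Gabarapl1 (0.30, SE 0.07), all members of the family of LC3 and named here after their values were seen. The 12 pan-neuronal markers had a median of 0.54 in the same comparison, and the part of cell makeup in these 4 values was not tested. Of 10 genes of the ULK complex and its upstream kinases, 2 were higher and 4 lower, and of 9 of the PI3-kinase complex 2 were higher and 2 lower. Of 12 genes of membrane delivery 3 were higher and 2 lower, of 10 cargo receptors 2 higher and 0 lower, and of 13 genes of fusion and lysosome 2 higher and 3 lower. None of the 5 transcription factors was higher and 2 were lower. The lists are small and are given as counts only, to be read against the same 19.6% and 22.5% of all genes.

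Atg101, a subunit of the ULK complex, rose from 36.6 ± 3.37 CPM in WT input to 53.5 ± 6.14 in WT TRAP (SD, n = 3), with a log2 difference over both genotypes of 0.60 (SE 0.11). Bnip3, a mitophagy receptor, was higher by 0.54 (SE 0.11) and Calcoco1, a receptor for endoplasmic reticulum, by 0.46 (SE 0.09). In the other direction, Tfeb, the transcription factor that drives lysosome and autophagy genes, was at 6.81 ± 1.15 CPM in WT input and 1.11 ± 0.0754 in WT TRAP, a log2 difference of -2.23 (SE 0.46) at a level close to the floor. Vamp8, a SNARE of autophagosome fusion, was lower by a log2 difference of -1.61 (SE 0.40), also at few counts. Zkscan3, a repressor of autophagy genes, was at -0.87 (SE 0.20), Lamp2, a lysosomal membrane protein, at -0.77 (SE 0.22), and Wipi1, which reads the lipid mark, at -0.61 (SE 0.17). Their adjusted p-values ran from 7.34e-05 for Calcoco1 to 0.00624 for Lamp2 by edgeR. Glial markers were lower in the same comparison, with medians of -2.74 for astrocyte, -3.74 for oligodendrocyte and -3.54 for microglia markers. The part of cell makeup in the values of these pathway genes was not tested.

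Atg7 was also set beside 9 other E1 enzymes, which start the conjugation of ubiquitin and its relatives. Of 8 tested, 3 were called higher in TRAP and 0 lower, where 19.6% of all genes were higher and 22.5% lower. Among them were Sae1, of the SUMO pathway, at 0.67 (SE 0.08, adjusted p = 2.33e-07), and Uba1, the main E1 of ubiquitin, at 0.47 (SE 0.08, adjusted p = 4.16e-05), both by edgeR. The range over the 8 was -0.08 to 0.67. Atg7, at 3.19, was chosen as the largest of all genes, so its place above them follows from that choice. The 12 pan-neuronal markers had a median of 0.54 in this comparison.

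**Figure D3:**
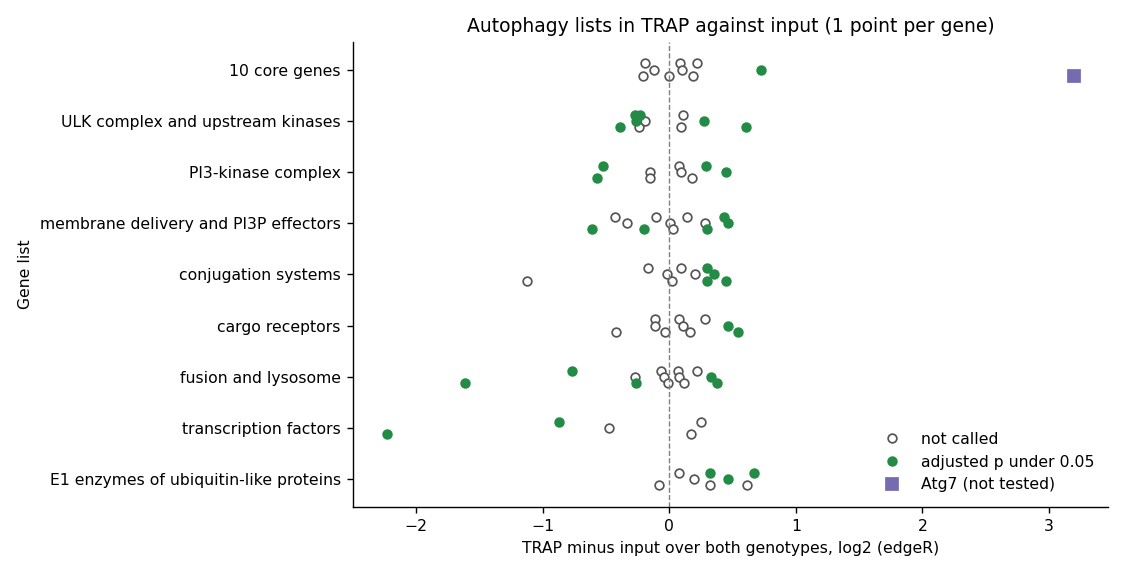
Log2 difference of TRAP minus input over both genotypes (edgeR estimate, 1 point per gene) for the 10 core genes, 7 lists of other autophagy genes and the E1 enzymes. Filled green points have an adjusted p under 0.05, open points do not, and the square is Atg7 at 3.19, which was not tested, while the other genes shown lie between -2.23 and 0.72.

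FosB KO was compared with WT in TRAP to ask whether loss of FosB in NAc-projecting neurons changes these transcripts. None of the 10 genes passed the threshold by edgeR, where 0.0682% of all 11727 genes tested did (8 genes), and by DESeq2 it was 0 of 10 too. At an unadjusted p under 0.05, 1 of 10 genes was found by edgeR, with 6.05% of all genes (709 genes), and 0 of 10 by DESeq2. The estimates were below 0 for 8 of the 10 genes, with a median of -0.07 against -0.00 over all genes. Markers of cell types, neuronal and glial, lay the same way in this comparison. Of the 12 pan-neuronal markers 11 were below 0, with a median of -0.10, and the 10 glutamatergic markers had a median of -0.13. The medians were -0.11 for 9 GABA neuron markers, -0.09 for 11 astrocyte markers and -0.10 for 6 oligodendrocyte markers. Of these, 3, 4 and 2 markers were above 0. None of these markers was called by edgeR. At an unadjusted p under 0.05 there were 3 pan-neuronal, 0 glutamatergic, 1 GABA neuron, 1 astrocyte and 0 oligodendrocyte markers by edgeR. The summed CPM of the pan-neuronal markers was 13535 to 14942 in KO TRAP and 15530 to 16242 in WT TRAP, without overlap, and its part in the values of the core genes was not tested.

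Map1lc3b was the gene with an unadjusted p under 0.05. It was at 142, 158 and 154 CPM in WT TRAP and at 129.96, 128 and 122 CPM in KO TRAP, with every KO library below every WT library. The log2 difference was -0.24 (SE 0.11, unadjusted p = 0.0390, adjusted p = 0.809 by edgeR), which did not pass the correction over all genes. Ulk2, at 133, 134 and 128 CPM in WT and 121, 123 and 128 CPM in KO, and Atg12, at 53.0, 55.8 and 55.2 CPM in WT and 52.4, 47.2 and 52.1 CPM in KO, also did not overlap between genotypes. Their differences were small, -0.07 (SE 0.11) and -0.10 (SE 0.15). These 3 of 10 genes, all lower in KO, compare with 12.1% of all genes that did not overlap in either direction and 6.87% that were lower.

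Atg7 had the widest interval of the 10. Its TRAP values given above overlapped between genotypes, with KO replicate 4 level with WT replicate 1 at 210 CPM. The log2 difference was -0.55 (SE 0.32, 95% interval -1.40 to 0.29, unadjusted p = 0.151, adjusted p = 0.881 by edgeR), and the exact two-sided permutation test gave p = 0.3, where 3 libraries against 3 cannot go below 0.1. Without WT TRAP replicate 2, whose Atg7 level was the highest, it was -0.19. Without KO TRAP replicate 2, whose Atg7 level was the lowest and whose GABA neuron markers were the highest, it was -0.42. In a fit without robust dispersion the unadjusted p of Atg7 was 0.0099 and in a fit of all 12 libraries 0.0218, with adjusted p of 0.769 and 0.692 by edgeR.

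Intervals of the other 9 genes ran from -0.46 at the lowest to 0.43 at the highest, and only that of Map1lc3b lay to 1 side of 0. Becn1 was at 0.13 (SE 0.13) and Atg5 at 0.04 (SE 0.19), the 2 estimates above 0. Atg3, Ulk1, Atg4b and Sqstm1 were at -0.11, -0.07, -0.07 and -0.07. Of the other pathway genes, 0 of the 66 tested were called by edgeR, with 2 at an unadjusted p under 0.05. These were Nrbf2, a subunit of the PI3-kinase complex (-0.51, adjusted p = 0.714), and Wdr45b, a reader of its lipid product (-0.36, adjusted p = 0.774), both named after their values were seen. The 66 genes had a median of -0.04, against -0.00 over all genes.

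In input, 0 of the 10 genes passed the threshold between KO and WT by edgeR, where 0.0312% of all 12816 genes were called (4 genes), and 0 of 10 by DESeq2. None had an unadjusted p under 0.05, as 2.89% of all genes had by edgeR (371 genes), and 0 of 10 did not overlap between genotypes, where 8.4% of all genes did not. The largest estimate was that of Atg5, at 30.9, 24.7 and 28.0 CPM in WT and 41.9, 25.7 and 38.7 CPM in KO, with a log2 difference of 0.35 (SE 0.20, adjusted p = 1.00 by edgeR). KO replicate 3 lay within the WT range and the other 2 KO libraries above it, and without KO replicate 3 the difference was 0.53, without KO replicate 2 it was 0.21. Atg3 was at 0.20 (SE 0.15) and Atg7 at -0.14 (SE 0.20, 95% interval -0.56 to 0.28), and the other 7 genes lay between -0.06 and 0.05.

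**Figure D4:**
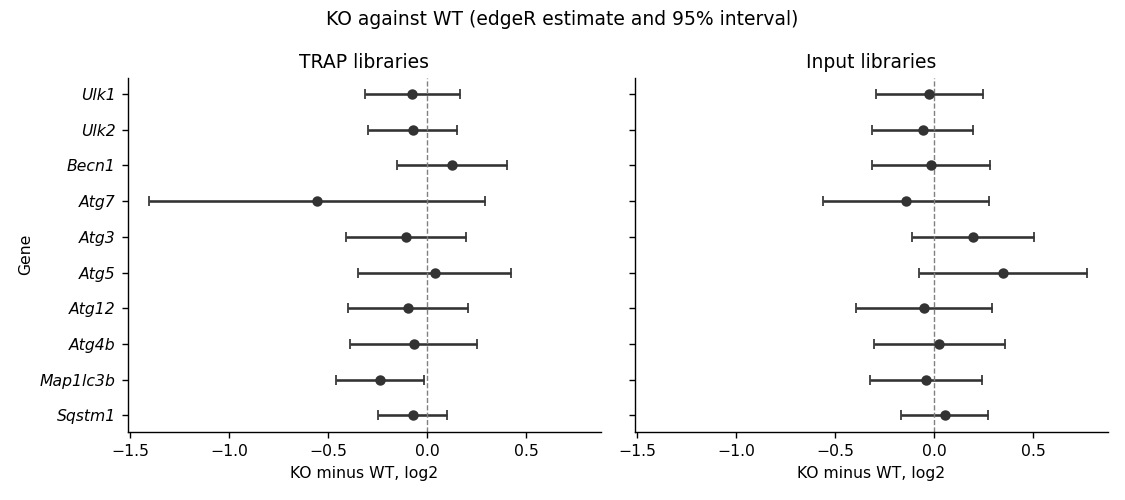
KO minus WT on the log2 scale for each gene in TRAP (left) and input (right), as the edgeR estimate (point) with its 95% interval (bar), from 3 libraries per genotype. Except for Map1lc3b in TRAP, at -0.24, every interval spans 0, and that of Atg7 in TRAP is the widest, from -1.40 to 0.29.

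Whether TRAP over input differed between genotypes was tested as an interaction. None of the 10 genes was called by edgeR, where 0.00757% of all genes were (1 gene), and none by DESeq2, with 0 of 10 at an unadjusted p under 0.05 by edgeR, as 2.71% of all genes had (358 genes). For Atg7 the TRAP over input difference in KO minus that in WT was -0.41 (SE 0.34, 95% interval -1.15 to 0.33, unadjusted p = 0.255 by edgeR), from 10.6-fold in WT and 7.89-fold in KO. Leaving out 1 pool at a time moved it from -0.62, without pool 4 of KO, to -0.15, without pool 2 of WT, with -0.22 without pool 2 of KO. The other 9 genes lay between -0.31 for Atg5 and 0.15 for Becn1.

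The genes most like Atg7 were found by Pearson's r of log2(CPM + 0.5). Over the 12 libraries they included Kalrn (r = 0.993), Aldoa (0.990), Tnrc18 (0.987) and Gse1 (0.986), and 536 of 13213 other genes had r above 0.9. All 12 points share the split into TRAP and input, which sets most of r. Kalrn, which encodes a guanine nucleotide exchange factor of dendritic spines, had a log2 difference between TRAP and input of 2.57 (SE 0.22), Tnrc18 of 3.04 and Gse1 of 2.80 (SE 0.22). Aldoa, a glycolytic enzyme, had a smaller one of 0.84. Of the core genes, Sqstm1 was closest to Atg7 over the 12 libraries (r = 0.953), but over the 6 TRAP libraries alone its r was 0.067. There the closest core gene was Ulk2 (r = 0.860), followed by Atg4b (0.652) and Map1lc3b (0.640).

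WT TRAP replicate 2, the highest library for Atg7, was also the highest for these 4 genes, which were chosen by r over libraries that include it. Kalrn was at 3259, 7079 and 3318 CPM in WT TRAP and at 3012, 3755 and 4541 CPM in KO TRAP. Tnrc18 was at 1109, 1803 and 753 CPM in WT and at 928, 832 and 1286 CPM in KO. In both genes, as in Atg7, replicate 2 of WT stood apart, whereas the lowest library was KO replicate 2 in Kalrn and WT replicate 3 in Tnrc18. Over the 6 TRAP libraries the closest genes were B3gat3 (r = 0.991), Ccdc108 (0.983), Gm13436 (0.977), Rundc3a (0.976) and Nelf (0.970), with 117 genes above 0.9. Their TRAP over input differences ran from -0.97 to 0.27 on the log2 scale. All 5 had their highest and lowest TRAP libraries in common with Atg7, which follows from their choice by r over these same 6 libraries, and Ccdc108 and Gm13436 had few counts.

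**Figure D5:**
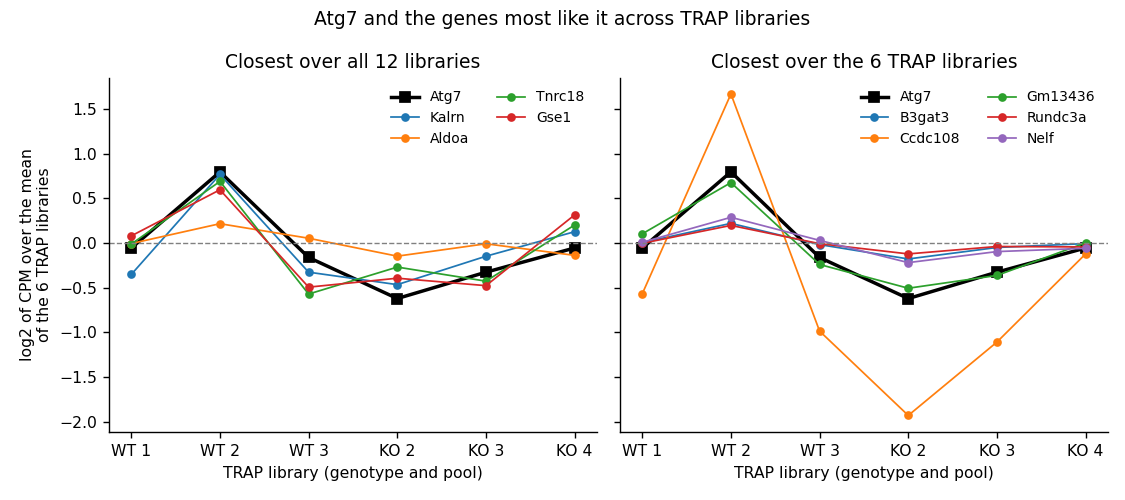
Log2 of CPM over the mean of the 6 TRAP libraries, for Atg7 (black squares) with 4 of the genes with the highest Pearson's r over all 12 libraries (left) and the 5 with the highest r over the 6 TRAP libraries (right), where lines only join the points of a gene. Every gene shown is highest in WT replicate 2, where Atg7 is at 379 CPM and Kalrn at 7079 CPM.

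Replicates of Atg7 in TRAP varied more than those of the other core genes. Its coefficient of variation was 39.1% in WT TRAP and 19.4% in KO TRAP, against 2.54% to 14.6% for the other 9 genes in WT TRAP and 2.66% to 13.5% in KO TRAP. In WT input it was 11.9% and in KO input 9.48%, within the range of the others. Of all 13214 genes, 79.4% had a smaller SD of log2 CPM than Atg7 in WT TRAP and 59.9% in KO TRAP.

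Promoters were read for letters known from the factors of this study and pathway, in windows of 300 bases (250 before and 50 after the start) that RefSeq gives on GRCm38.p6 for 8 of the 10 genes, without Becn1 and Atg12. The AP-1 letters TGANTCA, to which FOS and JUN dimers bind, were in 0 of the 8 windows on either strand and in 7.81% of all 32851 promoter windows. The E-box CACGTG, the same on both strands and the core of the site of TFEB, was in 3 of the 8 and in 7.15% of all windows. A match is a description of these letters, not evidence of binding, and no match speaks only of this window. The stretches that hold the E-box, in capitals, are shown because the pathway's own regulator, Tfeb, is known to use it:
Atg7, chr6:114670952-114670981, first base 132 before the start: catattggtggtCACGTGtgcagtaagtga
Atg5, chr10:44268309-44268338, 14 before: agggcggagcgcttgcCACGTGgtcttggt
Atg3, chr16:45158723-45158752, 94 before: gcctccttttgtCACGTGtcctgggagagt
Atg3, chr16:45158746-45158775, 71 before: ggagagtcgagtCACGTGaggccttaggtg
All are on the plus strand of GRCm38.p6, 5′ to 3′, with the distance counted from the first base of the E-box. The start used for each window is the RefSeq one on GRCm38.p6. Whether that of Atg7 is the start of the mm9 span given above, or a start within the gene, was not tested. Of the 3 genes that hold the E-box, Atg7 was chosen for its 9.16-fold value in TRAP over input. Atg5 and Atg3 were not called in TRAP against input, at -0.00 and -0.20 on the log2 scale. A link between the E-box and these values was not tested.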

How the data were processed

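The authors deposited raw counts of reads per gene for each of the 12 libraries. TopHat had placed the reads on mm9, and HTSeq had assigned them to genes of Gencode vM1. Reads with several alignments, on no gene (20.6% to 27.1% of unique ones) or ambiguous between genes (2.11% to 2.56%) stayed out of library sizes. All 37310 gene IDs matched Gencode vM1. The members and gene lists, and the rule for named genes (all members, the 5 genes most like Atg7 over 12 and over 6 libraries, and the 5 largest called changes in each direction of the pathway and E1 lists), were chosen with earlier results of these data known. A few genes that the rule or lists hold are not reported here.

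Counts were tested with edgeR 4.0.16 in R 4.3.3, with the default filter by group, TMM, robust dispersion, the quasi-likelihood test and Benjamini-Hochberg adjustment over all genes tested, at a threshold of 0.05. SE is the size of the log2 difference over the root of F. CPM was TMM-normalized over the 12 libraries, and the floor of 3 reads covers counting error only. KO was set against WT within TRAP and within input, and TRAP against input in each genotype, over both, and as an interaction. The steps were tested on simulated data. Alternatives were RLE, total counts, no mitochondrial genome genes, other filters, no robust dispersion, DESeq2 1.42.0, 1 fit of all libraries, pan-neuronal scaling, replicate blocks and leaving out each library or pool. Tiles of 75 bases at steps of 25 were aligned with minimap2 2.31.

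TRAP and input of a number came from the same mice, which pairs them. Their deviations from the group means correlated at 0.0583 to 0.106 in WT and 0.0729 to 0.102 in KO. Numbers 2 and 3 of KO and WT are different mice. Between libraries of a group, 0.853% to 2.07% of genes had identical counts.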

Additional observations from a re-analysis of the deposited data

How the results depend on the processing

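Counts were lowest for Atg7 in input, at 83 to 120 reads per library, and for Atg5, at 107 to 198 reads over all libraries, and each group had 3 pools. No core gene passed the threshold between KO and WT, or in the interaction, under any alternative run, and Sqstm1 was called higher in TRAP over both genotypes under all of them, between 0.44 and 0.78. The cause of the changes listed here was not tested.

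Between KO and WT in TRAP, 4 genes were called higher and 4 lower. Without a filter they were 15 and 26, with DESeq2 12 were lower, and with the number as a replicate block 2 were lower. With that block Sqstm1 turned to 0.0089. In input, 1 was higher and 3 lower. Without a filter they were 8 and 11, with DESeq2 7 were lower, in the fit of all 12 libraries 6 were lower, and with the replicate block 9 were higher and 11 lower. With that block, Ulk2 turned to 0.061, Atg12 to 0.014, Atg4b to -0.088 and Map1lc3b to 0.0032. These numbers stand for different mice: same-numbered TRAP libraries correlated at -0.041 and input libraries at -0.030 on average, over 2 numbers.

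Between TRAP and input over both genotypes, total counts called 2 core genes higher other than Atg7 (Sqstm1 and Map1lc3b) in place of 1. Atg5 turned to 0.023 with total counts, 0.0048 without a filter and 0.0045 with the pool as a replicate block. With pan-neuronal scaling 3 core genes were lower, 761 genes higher and 5112 lower, in place of 2596 and 2976, and Ulk1 turned to -0.19, Atg12 to -0.20, Atg4b to -0.068 and Map1lc3b to -0.10. On that scale in WT, 2 core genes were lower, 258 genes higher and 3514 lower, in place of 1472 and 1624, and in KO 3 core genes were lower, 562 genes higher and 2958 lower, in place of 1648 and 1978. In KO, 1 core gene, Atg3, was lower without mitochondrial genome genes, with 2023 genes lower, and 1 with the replicate block, with 2117 genes lower, in place of 0 core genes and 1978 genes. The replicate block changed no other call of a core gene. The 1 gene called in the interaction became 0 without robust dispersion.

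Leaving out 1 library or pool at a time gave ranges. Between KO and WT in TRAP, 2 to 10 genes were higher and 3 to 13 lower, Atg4b ran from -0.18 to 0.020, Atg5 from -0.016 to 0.15 and Atg7 from -0.72 to -0.19. In input, 1 to 2 genes were higher and 0 to 3 lower. There Ulk1 ran from -0.11 to 0.043, Ulk2 from -0.13 to 0.049, Becn1 from -0.11 to 0.11 and Atg12 from -0.15 to 0.060. Atg4b ran from -0.071 to 0.081, Map1lc3b from -0.19 to 0.068 and Sqstm1 from -0.0078 to 0.12. In TRAP against input over both genotypes, 1 to 2 core genes were higher (Map1lc3b without KO replicate 3) and 0 to 1 lower (Becn1 without WT replicate 2), and Atg5 ran from -0.044 to 0.066. In WT 479 to 1512 genes were higher and 810 to 1731 lower, and Atg3 ran from -0.18 to 0.089. In KO 725 to 1416 genes were higher and 1257 to 1765 lower. In the interaction 0 to 1 genes were lower, and Becn1 ran from -0.0040 to 0.33.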
